A study of Mus musculus with 18 samples.

Results

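The microRNAs described here are the 6 mature arms of the miR-199 and miR-214 hairpins, mmu-miR-199a-3p, mmu-miR-199a-5p, mmu-miR-199b-3p, mmu-miR-199b-5p, mmu-miR-214-3p and mmu-miR-214-5p, written without the mouse prefix from here on. They were chosen by name, as the hairpins known from fibroblasts that lie opposite dynamin genes, and are 6 of the 1251 entries of a microRNA table from mouse skin. Small RNA was sequenced from 6 female littermate SKH-1E Hairless mice, which lack a working Hairless gene and readily form skin tumours under ultraviolet light. All mice had received chronic ultraviolet B light from a solar simulator, and each gave 3 samples: chronically irradiated skin without a lesion (CHR), which itself carries elastosis, fibrosis and chronic inflammation, a papilloma (PAP), and a cutaneous squamous cell carcinoma (cuSCC). There were therefore 18 libraries, 6 of each sample type, numbered by mouse (2, 3, 7, 8, 9 and 10). All mice were irradiated from young adulthood, and unirradiated skin is no part of the comparison. Each sample is whole tissue, so that fewer cells of a type and less RNA per cell cannot be told apart.

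A microRNA hairpin is cut into a 5p and a 3p arm, either of which can be loaded into Argonaute and then represses messenger RNAs that pair with its seed, bases 2 to 8. The miR-199a-2 and miR-214 hairpins are processed from Dnm3os, a non-coding RNA transcribed from the strand opposite the dynamin gene Dnm3, and Dnm3os is known as a target of the mesenchymal factor Twist1. These microRNAs are abundant in mesenchymal cells such as fibroblasts and perivascular cells and low in keratinocytes, and they are best known from fibrosis, where miR-199a-5p acts on caveolin-1. The table holds microRNAs only, so messenger RNA markers of fibroblasts were not measured in it, and the fibroblast origin of the reads could not be checked directly.

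The mature sequences, from RefSeq (GRCm38.p6), are shown with the seed in capitals because they define what each arm can pair with and which arms reads cannot tell apart. RefSeq entries were matched for 5 of the 6 arms, all but miR-199b-5p.
miR-199a-3p: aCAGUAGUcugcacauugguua
miR-199b-3p: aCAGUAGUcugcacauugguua
miR-199a-5p: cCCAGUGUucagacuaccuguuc
miR-214-3p: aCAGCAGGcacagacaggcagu
miR-214-5p: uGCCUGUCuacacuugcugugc
miR-199a-3p and miR-199b-3p are the same molecule by sequence, and the table gave them the same value in 18 of 18 libraries. They are treated below as 1 measurement, so that the 6 arms give 5 distinct series of values. The seed of miR-214-3p is shared with 1 other entry, miR-761, which stood at the lowest value of the table in every library.

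Of the 4 hairpins, Mir199a-2 lies on chromosome 1 (chr1:162217814-162217923, plus strand) and Mir214 on the same strand (chr1:162223368-162223477). Both fall in an exon of Dnm3os, 5444 bases apart, in the opposite orientation to Dnm3. Mir199b lies on chromosome 2 (chr2:32318460-32318569, plus strand) opposite Dnm1 and Mir199a-1 on chromosome 9 (chr9:21496495-21496564, minus strand) opposite Dnm2, each outside annotated exons. The Dnm3os hairpins are shown with both mature arms in capitals, since these are the arms compared within each library further on.
Mir199a-2: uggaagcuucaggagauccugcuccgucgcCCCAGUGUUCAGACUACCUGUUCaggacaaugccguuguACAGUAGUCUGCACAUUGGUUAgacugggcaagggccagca
Mir214: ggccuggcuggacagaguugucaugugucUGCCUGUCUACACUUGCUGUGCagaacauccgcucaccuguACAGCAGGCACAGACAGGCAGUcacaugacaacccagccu
The 5p arm of miR-199a is encoded by both Mir199a-1 and Mir199a-2, and the shared 3p arm by these and Mir199b, so a change of either cannot be assigned to a locus. Both miR-214 arms come from Dnm3os alone.

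**Figure D1:**
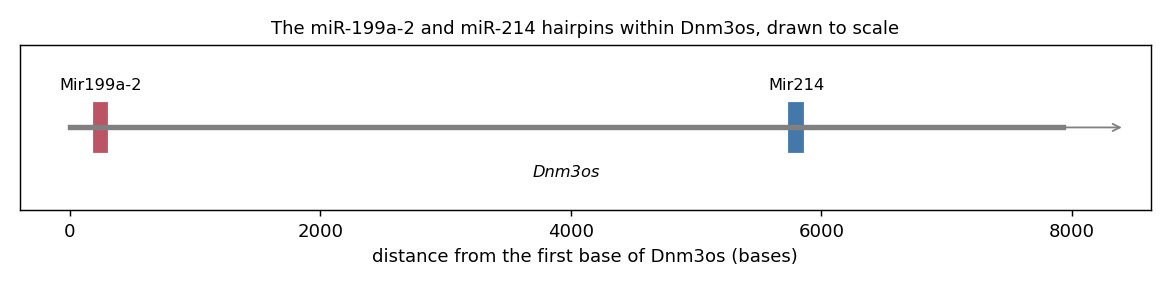
Positions of the Mir199a-2 and Mir214 hairpins (boxes, to scale) within Dnm3os (grey line, transcribed to the right), in bases from its first base. Mir199a-2 begins 191 bases and Mir214 begins 5745 bases after that base, in a gene of 7928 bases.

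The window of 300 bases around the start of Dnm3os (chr1:162217373-162217672, plus strand) is printed because both miR-214 arms, and the miR-199a arms in part, derive from this transcript. Capitals mark the letters CANNTG, the E-box to which factors such as Twist1 bind, which reads the same on both strands.
Dnm3os: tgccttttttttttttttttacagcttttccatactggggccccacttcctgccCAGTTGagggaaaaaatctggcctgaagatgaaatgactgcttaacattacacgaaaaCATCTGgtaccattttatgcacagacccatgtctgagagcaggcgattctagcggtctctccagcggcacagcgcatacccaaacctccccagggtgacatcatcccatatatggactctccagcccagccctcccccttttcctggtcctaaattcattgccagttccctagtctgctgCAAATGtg
There were 3 matches, beginning at -196, -138 and 42 bases from the first transcribed base. Of all 32851 mouse promoter windows of this length 72.3% hold at least 1 such match, so a match does not set Dnm3os apart, and it says nothing of binding.

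Levels are given as deposited, on the log2 scale of normalized ppm. Taken out of the log, they added up to 2.34 to 2.35 times the sum that ppm can have, so a value cannot be read as a fraction of a library's reads. Quantile normalization gave the libraries almost identical sets of values, and a level therefore stands for a rank within its library. The lowest value, 3.32 (10 ppm), stands for not detected. Detected entries numbered 200 to 328 per CHR library, 163 to 281 per PAP library and 236 to 365 per cuSCC library, and the lowest detected value reached 6.83 in the PAP of mouse 10, so an undetected arm there can have been anywhere below that level. Of the 293 entries detected in at least 6 libraries and tested, the limma linear model gave an adjusted p under 0.05 for 54 that were lower (18.4%) and 41 that were higher (14.0%) in PAP than in CHR. In cuSCC against CHR the shares were 22.2% lower and 20.1% higher, and in cuSCC against PAP they were 2.39% lower and 9.22% higher. These splits depended on scaling: with each library centred on the median of its detected entries, which moved the 3 comparisons by -1.02, 0.20 and 1.21, they became 74 lower and 7 higher, 31 lower and 46 higher, and 1 lower and 108 higher. With undetected entries raised to their library's lowest detected value, the splits were 37 lower and 63 higher, 67 lower and 51 higher, and 62 lower and 18 higher.

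The 6 arms spanned a wide range of abundance. In CHR, miR-214-3p was the most abundant, at 12.28 ± 0.16 (log2 ppm, SD, n = 6) and a median rank of 45.5 in its library. The shared miR-199-3p arm followed at 10.62 ± 0.43 (SD, n = 6), without overlap with miR-214-3p. miR-199a-5p stood at 10.08 ± 0.49 (SD, n = 6), in a range that overlapped that of the 3p arm, although the 3p arm was above the 5p arm in 18 of 18 libraries. The passenger arm miR-214-5p was far lower, at 6.14 ± 0.27 (SD, n = 6), and miR-199b-5p, the arm that only Mir199b encodes, was detected in 2 of 6 CHR libraries.

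In cuSCC the order at the top changed. The miR-199-3p arm was then the most abundant, at 11.76 ± 1.25 (SD, n = 6) and a median rank of 42.5, ahead of miR-214-3p at 11.09 ± 1.51 and miR-199a-5p at 10.63 ± 1.66 (SD, n = 6 each). These 3 ranges overlapped across mice, but the arms were measured in the same libraries. Within cuSCC libraries, miR-199-3p stood 0.38 to 2.15 above miR-199a-5p. The difference of miR-199-3p minus miR-214-3p there ranged from -1.05 to 1.51. In PAP, miR-214-3p (9.64 ± 3.17), miR-199-3p (9.13 ± 1.08) and miR-199a-5p (7.86 ± 2.37) also overlapped (SD, n = 6 each). The median ranks of miR-199-3p and miR-214-3p in PAP were 99 and 74.

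**Figure D2:**
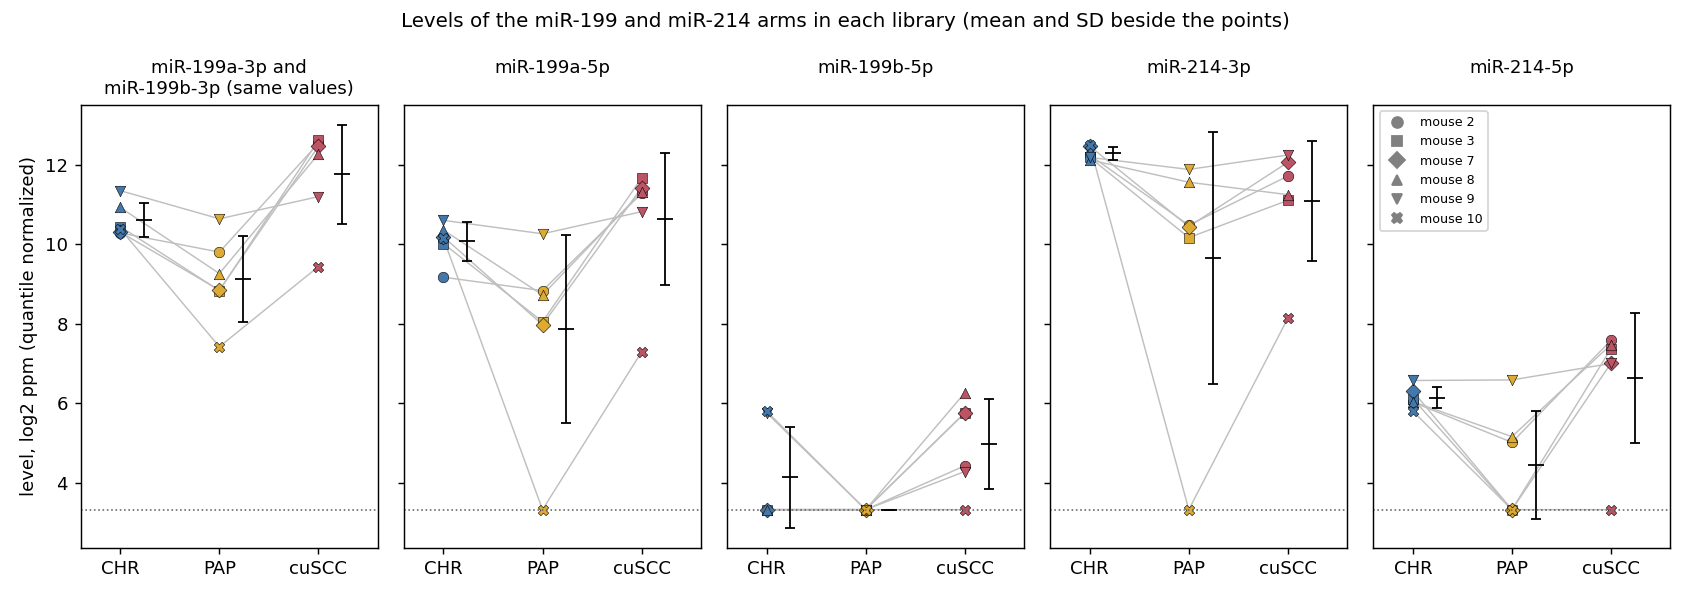
Level of each arm (vertical axis, log2 ppm, quantile normalized) in CHR, PAP and cuSCC, with 1 symbol per mouse, grey lines joining the samples of a mouse, and the mean ± SD of 6 libraries beside the points. The dotted line is the lowest value of the table, 3.32; most arms dip in PAP, and the PAP and cuSCC of mouse 10 (crosses) lie lowest or among the lowest.

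In papillomas 3 of the 6 arms (2 distinct series) were lower by limma than in irradiated skin. The call of 1 of these, miR-214-5p, rests on undetected values, as given below. The miR-199-3p arm fell by 1.48 on the log2 scale, a 2.79-fold lower level, and miR-214-5p fell by 1.69, while miR-214-3p and miR-199a-5p were lower in 6 of 6 mice without passing the test. With adjustment over all 293 tested entries, 3 of the 6 arms passed (2 distinct series), all lower, against the 18.4% of tested entries that were lower. The median difference of the 6 arms, with the shared 3p series counted for both of its names, was -1.58. That of all tested entries was -0.23.

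In CHR, miR-199-3p stood at 10.28, 10.45, 10.31, 10.92, 11.35 and 10.38 in mice 2, 3, 7, 8, 9 and 10. In PAP it stood at 9.80, 8.83, 8.84, 9.26, 10.64 and 7.42. Each papilloma was below the skin of its own mouse, but the groups overlapped through the PAP of mouse 9, which was above 4 CHR samples. The difference had a standard error of 0.46 and a 95% interval from -2.47 to -0.49 (limma adjusted p = 0.0292), and it was lost on leaving out mouse 3, 7 or 8 (limma adjusted p up to 0.0795).

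miR-214-3p, the most abundant arm of skin, was tightly held in CHR, at 12.24, 12.19, 12.47, 12.12, 12.19 and 12.50. In PAP it stood at 10.48, 10.17, 10.45, 11.56 and 11.88 in mice 2, 3, 7, 8 and 9, and it was not detected in mouse 10. All PAP libraries were thus below all CHR libraries. The difference of -2.64 had a standard error of 1.16 and a wide 95% interval from -5.16 to -0.12 (limma adjusted p = 0.102). Without the PAP and cuSCC of mouse 10 it was smaller, -1.38, and passed (limma adjusted p = 0.00833), as did an exact permutation test per entry on all mice (adjusted p = 0.0135).

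miR-199a-5p stood between 9.17 and 10.60 in CHR (median 10.17) and between 7.97 and 10.26 in the 5 papillomas where it was detected. It was not detected in the PAP of mouse 10. The difference of -2.22 (standard error 0.90, limma adjusted p = 0.0778) became -1.31 and passed without the lesions of mouse 10 (limma adjusted p = 0.0363). miR-214-5p stood between 5.80 and 6.57 in CHR and at 5.01, 5.16 and 6.59 in the PAP of mice 2, 8 and 9, and it was not detected in mice 3, 7 and 10. Its fall (standard error 0.53, limma adjusted p = 0.0307) rests on those undetected values: with each raised to its library's lowest detected value, the difference was -0.19 (limma adjusted p = 0.692). The call was also lost on leaving out mouse 2, 3, 7, 8 or 10 (limma adjusted p up to 0.101). miR-199b-5p was listed at the lowest value in 6 of 6 papillomas, and in CHR it reached 5.76 and 5.80 in mice 9 and 10.

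At the study's own thresholds, a fold of 1.5 with an unadjusted p under 0.05, 5 of the 6 arms were lower in PAP than in CHR (4 distinct series), where 24.6% of tested entries were. Without the PAP and cuSCC of mouse 10, 4 of 6 passed the adjusted test (3 distinct series), where 15.0% of tested entries did.

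Carcinomas held more of the shared miR-199-3p arm than papillomas. It rose by 2.62 on the log2 scale, a 6.15-fold higher level, in 6 of 6 mice. miR-199a-5p was higher by 2.77 in 6 of 6 mice without passing, and miR-199b-5p, undetected in every papilloma, was detected in 5 of 6 cuSCC. Of the 6 arms, 3 passed (2 distinct series), all higher, where 9.22% of tested entries were higher. One of them, miR-199b-5p, was detected in 5 cuSCC, 2 CHR and 0 PAP libraries, so it met the filter mainly through cuSCC. With no detected PAP value it could only be higher, so its call is no separate support. With detection in 9 libraries required it was not tested and 2 arms passed, the shared 3p series. With miR-199b-5p included, the median difference of the arms was 2.40 and that of all tested entries 0.21. The shared 3p series counts for both of its names in the median of the arms. PAP libraries serve in both this comparison and that with CHR, so a low PAP value moves both.

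In cuSCC, miR-199-3p stood at 12.54, 12.61, 12.47, 12.27, 11.20 and 9.44 in mice 2, 3, 7, 8, 9 and 10. The first 5 were above every papilloma, and that of mouse 10 was within their range, though above the papilloma of its own mouse. The difference had a standard error of 0.63 and a 95% interval from 1.26 to 3.99 (limma adjusted p = 0.0319). An exact permutation test per entry did not pass (adjusted p = 0.0945), nor did limma without a detection filter (adjusted p = 0.0646). The call was lost on leaving out mouse 2, 3, 7 or 8 (limma adjusted p up to 0.153), although the difference then remained between 2.39 and 3.03 whichever mouse was left out.

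miR-199a-5p stood at 11.28, 11.67, 11.42, 11.32, 10.82 and 7.29 in the cuSCC of mice 2, 3, 7, 8, 9 and 10. All but that of mouse 10 exceeded the highest papilloma, 10.26. The difference (standard error 1.07, limma adjusted p = 0.117) passed once the samples of a mouse were paired through a replicate block (limma adjusted p = 0.0218), and without the lesions of mouse 10 (2.53, limma adjusted p = 0.00272). miR-199b-5p stood at 4.43, 5.75, 5.76, 6.26 and 4.28 in mice 2, 3, 7, 8 and 9. All papillomas and the cuSCC of mouse 10 were at the lowest value, so no fold is given. It passed in the test (limma adjusted p = 0.0394) but not with the replicate block (limma adjusted p = 0.0564). With undetected values raised to the library's lowest detected value its difference turned to -0.32.

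The miR-214 arms did not pass between cuSCC and PAP. miR-214-5p stood at 7.58, 7.37, 7.01, 7.48 and 7.0 in 5 cuSCC and was undetected in that of mouse 10. It was 2.17 higher in cuSCC (standard error 0.80, limma adjusted p = 0.104). miR-214-3p stood at 11.72, 11.10, 12.06, 11.25, 12.24 and 8.14, and its ranges in cuSCC and PAP overlapped widely. Its difference of 1.44 had a 95% interval from -1.36 to 4.25 (limma adjusted p = 0.479), so that neither a fall nor a large rise was resolved. Without the lesions of mouse 10, miR-214-5p passed (2.61, limma adjusted p = 0.00931) and miR-214-3p did not (0.77, limma adjusted p = 0.196). The papillomas of mice 3 and 7, where miR-214-5p was undetected, are kept there. In that setting 5 of 6 arms were higher (4 distinct series), where 13.7% of tested entries were. At the study's thresholds 5 of 6 also were (4 distinct series), where 17.7% of tested entries were. Both counts include miR-199b-5p, which could only be higher and is no separate support.

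Against irradiated skin, carcinomas did not show a change of any arm that passed the test in all mice, and the arms pointed in different directions. miR-199-3p was higher by 1.14, miR-199a-5p by 0.55 and miR-214-5p by 0.49, and miR-214-3p was lower by 1.20. With limma 0 of 6 arms had an adjusted p under 0.05, and 3 of 6 had an unadjusted p under 0.05. An exact permutation test per entry gave 1 of 6, miR-214-3p (adjusted p = 0.0324). The median difference of the arms, with the shared series counted for both of its names, was 0.69. That of all tested entries was 0.11. At the study's thresholds, 2 arms with 1 shared series were higher, where 25.3% of tested entries were, and 1 was lower, where 26.3% were.

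Leaving out the lesions of mouse 10 changed this comparison. The cuSCC of mice 2, 3, 7 and 8 held miR-199-3p at 12.27 to 12.61, above the highest CHR value of 11.35, that of mouse 9 at 11.20 was inside the CHR range, and that of mouse 10 at 9.44 was below it. The difference of 1.14 had a standard error of 0.50 and a 95% interval from 0.08 to 2.2 (limma adjusted p = 0.0755). For miR-199a-5p, 5 of 6 cuSCC exceeded the highest CHR value of 10.60 and that of mouse 10 was lower than every CHR value. miR-214-5p showed the same arrangement, with 5 cuSCC above the highest CHR value of 6.57 and that of mouse 10 undetected. Without the PAP and cuSCC of mouse 10, a setting chosen after seeing the data, miR-199-3p rose by 1.60 (limma adjusted p = 0.00148), miR-199a-5p by 1.22 (limma adjusted p = 0.00523) and miR-214-5p by 1.15 (limma adjusted p = 0.00273). This made 4 of 6 arms higher (3 distinct series), where 22.2% of tested entries were.

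miR-214-3p did not share this rise. It was lower in cuSCC than in CHR in 5 of 6 mice, and only the cuSCC of mouse 9 was above the skin of its mouse. Its difference had a standard error of 0.56 and a 95% interval from -2.39 to -0.01 (limma adjusted p = 0.0954), and without the lesions of mouse 10 it was -0.61 (limma adjusted p = 0.0834).

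**Figure D3:**
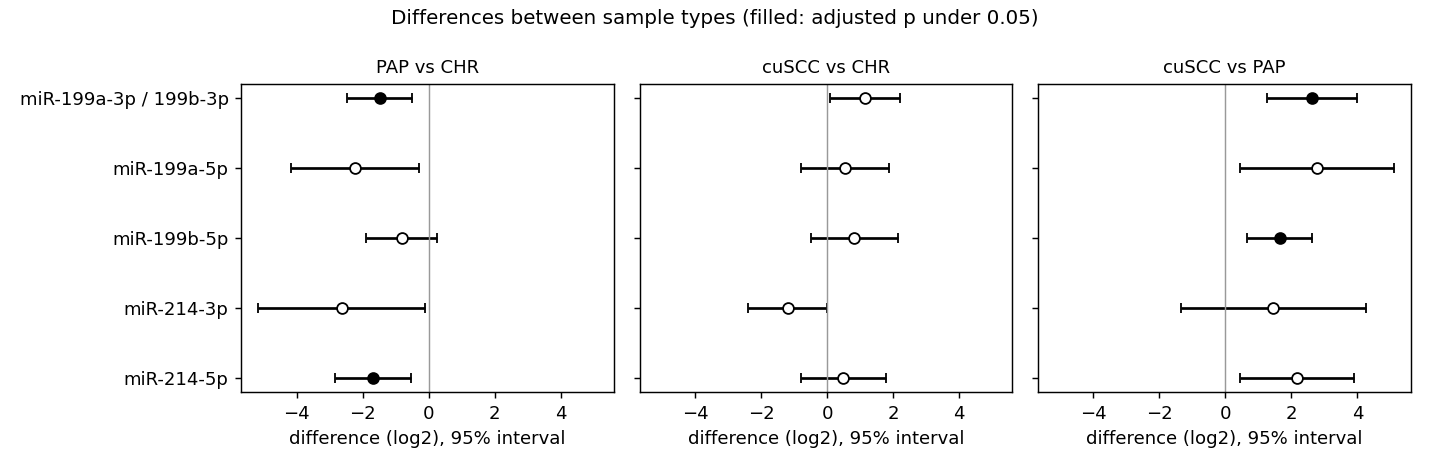
Difference between sample types of each distinct series (horizontal axis, log2, first type minus second) with its 95% interval from limma, n = 6 libraries per type, and filled points for an adjusted p under 0.05. The arms lie left of 0 in PAP against CHR and right of 0 in cuSCC against PAP, and in cuSCC against CHR miR-214-3p, at -1.20, lies apart from the others.

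Comparing the arms of a hairpin within each library asks whether they moved together, and for miR-214 between skin and carcinoma they did not. The 3p arm exceeded the 5p arm by 6.22, 6.07, 6.17, 6.08, 5.61 and 6.70 in the CHR of mice 2, 3, 7, 8, 9 and 10. In cuSCC the excess was 4.13, 3.73, 5.05, 3.77, 5.24 and 4.82. All 6 cuSCC values lay below all 6 CHR values, a fall of 1.68 on the log2 scale (exact permutation test, two-sided, p = 0.00216, the smallest it can give, and adjusted p = 0.013 over 6 arm comparisons). The difference was -1.95 to -1.55 with any 1 mouse left out (exact permutation adjusted p = 0.0238 to 0.0476). With the replicate block, an exact sign-flip test within mice gave adjusted p = 0.188. The excess fell in all 6 mice, so the unadjusted sign-flip p was the smallest that 6 pairs can give, 0.0312. Adjusted over 6 arm comparisons, that minimum in 1 comparison alone cannot pass, so this test decides nothing here. In the cuSCC of mouse 10 the 5p arm was undetected, so the excess there may be overstated, and with the lowest detected value in its place the difference between cuSCC and CHR was -1.88. Quantile normalization stretches different parts of the range differently, and its part in this difference was not tested.

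For PAP the miR-214 arms could not be compared as firmly, because the 5p arm was undetected in 3 papillomas. The excess of the 3p arm was 5.46, 6.84, 7.12, 6.40 and 5.30 in mice 2, 3, 7, 8 and 9 and 0.0 in mouse 10, where neither arm was detected. It did not differ from CHR beyond the spread (-0.95, exact permutation adjusted p = 0.722). Its value depended on the undetected arms: it was -1.87 with these raised to the library's lowest detected value (exact permutation adjusted p = 0.0714), and -2.09, which passed, with 100 ppm as the lowest value (exact permutation adjusted p = 0.00649). Its difference between cuSCC and PAP, -0.73 (exact permutation adjusted p = 0.722), was -1.84 and passed without the lesions of mouse 10 (exact permutation adjusted p = 0.0238). That setting keeps the PAP of mice 3 and 7, where the 5p arm was undetected and the excess may be overstated. With all mice and undetected arms raised to the library's lowest detected value, the difference was -0.014 (exact permutation adjusted p = 0.985).

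The miR-199a arms stayed closer to each other. The 3p arm exceeded the 5p arm by 0.54 ± 0.36 in skin, 1.27 ± 1.40 in papillomas and 1.12 ± 0.58 in carcinomas (SD, n = 6 each). The ranges overlapped, and the differences did not pass (exact permutation adjusted p = 0.385 for PAP and 0.162 for cuSCC against CHR, and 0.926 for cuSCC against PAP).

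The arms of the 2 families were set against each other after their values were seen, and this is given with no test. The 5p arms kept about the same distance in CHR and cuSCC, and the 3p arms did not. miR-199a-5p stood 3.14 to 4.34 above miR-214-5p in CHR and 3.69 to 4.41 above it in cuSCC, with means of 3.94 and 4.01. miR-199a-3p minus miR-214-3p was -2.16 to -0.84 in CHR, and in cuSCC it was 0.41 to 1.51 in 5 mice and -1.05 in mouse 9. The cuSCC of mouse 10 enters the 5p distance with miR-214-5p undetected, in a library whose lowest detected value was 4.50, so its value of 3.97 may be overstated. In the other 5 mice the 5p distance in carcinoma lay within 3.69 to 4.41, and the 3p arms exchanged places in 5 of 6 mice.

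**Figure D4:**
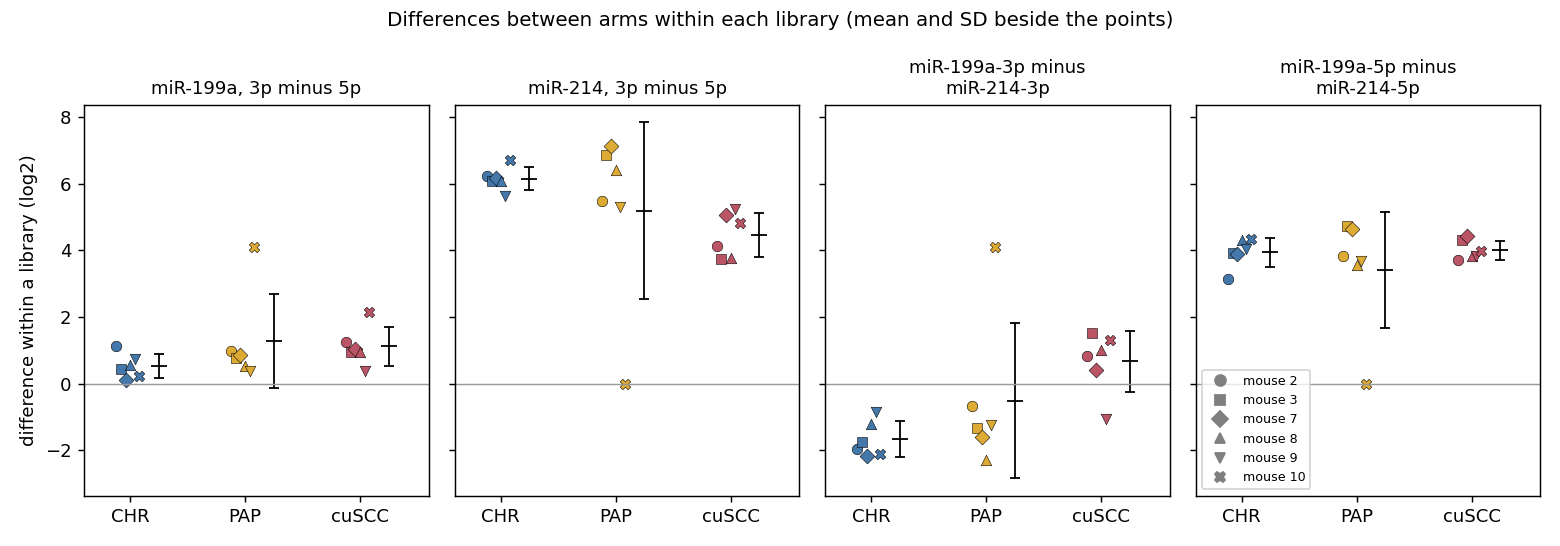
Differences between arms within each library (vertical axis, log2), by sample type, with 1 symbol per mouse and the mean ± SD of 6 libraries beside the points. The miR-214 excess of 3p over 5p lies between 5.61 and 6.70 in CHR and between 3.73 and 5.24 in cuSCC.

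Across the 18 libraries, miR-199a-3p followed miR-199a-5p (Pearson r = 0.91, Spearman rho = 0.97) and miR-214-5p (r = 0.91, rho = 0.94) closely. It followed miR-214-3p less closely (r = 0.64, rho = 0.40), and without the PAP and cuSCC of mouse 10 the latter r was 0.36, against 0.96 for miR-199a-5p and 0.92 for miR-214-5p. The libraries share mice, sample types and a common normalization, so these values are descriptions.

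Among tested entries outside the family, miR-143-3p, an abundant microRNA of smooth muscle and perivascular cells, was the most like miR-199a-3p (r = 0.95, rho = 0.92, and r = 0.93 without the lesions of mouse 10). After each sample type was centred on its mean the r was 0.93, and 0.78 without the lesions of mouse 10. miR-10b-5p (r = 0.89), miR-195a-5p (0.87), miR-152-5p (0.86) and the imprinted miR-434-3p (0.86) followed. miR-143-3p stood at 13.60 ± 0.28 in CHR, 12.07 ± 0.94 in PAP and 14.05 ± 1.11 in cuSCC (SD, n = 6 each). Since it was chosen for its likeness over these same libraries, its lower mean in PAP is a description and no separate support.

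**Figure D5:**
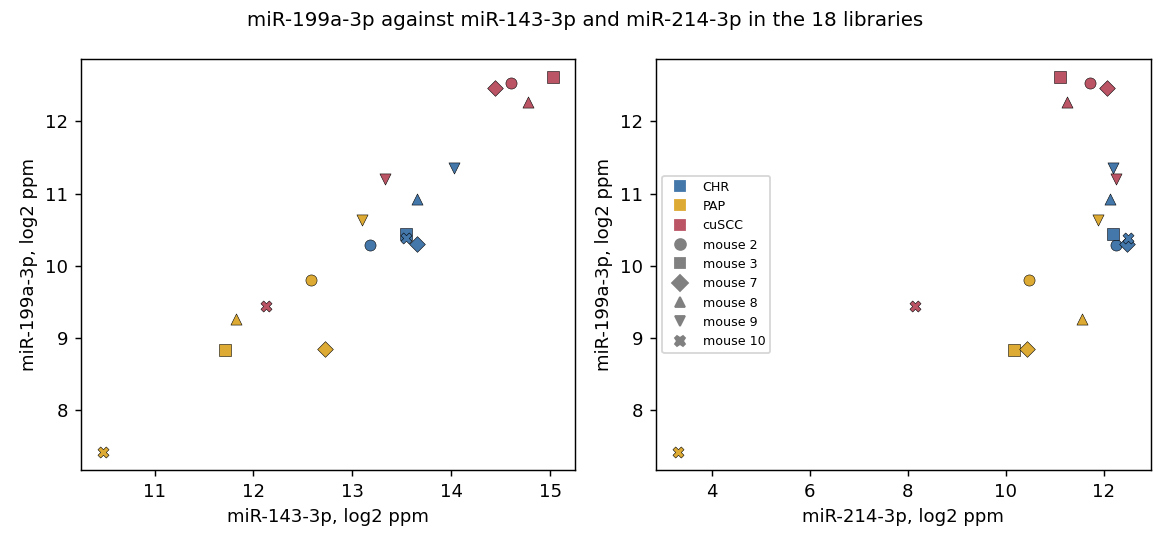
Level of miR-199a-3p (vertical axes, log2 ppm) against miR-143-3p and miR-214-3p (horizontal axes, log2 ppm) in 18 libraries, with colours for sample types and symbols for mice. Points follow 1 line for miR-143-3p (r = 0.95), whereas for miR-214-3p the cuSCC of mice 2, 3, 7 and 8 stand above every CHR in miR-199a-3p and below every CHR in miR-214-3p.

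Marker microRNAs of other cell types also differed between the sample types, not all in the same direction. Of the smooth muscle and perivascular list, 3 of 4 members were tested, and 2 were lower in PAP than in CHR (miR-143-3p and miR-145a-5p) where 18.4% of tested entries were, and 1 was higher in cuSCC than in PAP (miR-143-3p), where 9.22% were. miR-145a-5p was also lower in cuSCC than in CHR, with a difference of -1.78 (limma adjusted p = 0.014), unlike miR-199-3p and miR-143-3p, which did not pass there. Of the skeletal muscle list, 3 of 4 were tested. All 3 were lower in PAP than in CHR, where 18.4% of tested entries were. All 3 were also higher in cuSCC than in PAP, where 9.22% of tested entries were. Of this list only miR-133a-3p was detected in any papilloma. With no detected PAP value, miR-133b-3p and miR-206-3p could only be low in PAP, so their calls in both comparisons are no separate support. miR-133a-3p was also lower in cuSCC than in CHR, where 22.2% of tested entries were. Summed, the list stood at 15.44 to 15.98 in skin, at 3.32 to 12.44 in papillomas and at 5.16 to 14.24 in carcinomas, with miR-133a-3p, which defines it, at the lowest value in 3 papillomas. This list was therefore near its floor in most papillomas and high in all CHR samples.

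Leukocyte microRNAs were lower in PAP as well, 3 of 5 tested against CHR, where 18.4% of all tested entries were. In cuSCC against CHR 2 of them were lower (miR-150-5p and miR-342-3p) and 1 was higher (miR-142-5p), where 22.2% and 20.1% of tested entries were. Against PAP, 1 of the 5 was higher in cuSCC (miR-142-5p, 2.53, limma adjusted p = 0.0018), where 9.22% of tested entries were. Their summed level ranged over 13.34 to 14.36 in skin, 9.42 to 12.17 in papillomas and 11.49 to 13.24 in carcinomas. Both arms of the endothelial miR-126 were higher in cuSCC than in CHR and than in PAP, where 20.1% and 9.22% of tested entries were, with summed levels of 7.84 to 9.35, 7.53 to 9.0 and 9.26 to 11.17 in CHR, PAP and cuSCC. Epithelial microRNAs, mainly the miR-200 family, went the other way from the miR-199 arms in PAP: 4 of 7 were higher than in CHR, where 14.0% of tested entries were, and 0 were lower, with a summed level of 17.50 to 18.51 in CHR and 17.77 to 18.55 in PAP. In cuSCC against CHR 3 of the 7 epithelial entries were also higher, where 20.1% of tested entries were. Against PAP, 1 of the 7 was lower in cuSCC (miR-200c-3p, -1.45, limma adjusted p = 0.0319), where 2.39% of tested entries were. In PAP against CHR neither miR-126 arm passed (limma adjusted p = 0.691 for miR-126-3p and 0.197 for miR-126-5p). The part of these tissue shares, and of the lower number of detected entries in PAP, in the differences of the miR-199 and miR-214 arms was not tested.

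Of the microRNAs linked to collagen and fibrosis, 3 of 7 were tested. Both miR-21a arms were higher in cuSCC than in CHR, where 20.1% of tested entries were. miR-21a-5p was also higher than in PAP, where 9.22% of tested entries were. miR-29a-3p, known to repress collagens, differed by -0.06 between cuSCC and CHR (limma adjusted p = 0.885). The erythroid list, with 2 of 4 tested, had 1 member higher in PAP than in CHR (miR-451a), where 14.0% of tested entries were. In cuSCC against PAP 1 was lower (miR-486-5p), where 2.39% of tested entries were. In cuSCC against CHR miR-451a was higher and miR-486-5p lower, where 20.1% and 22.2% of tested entries were. Summed, this list stood at 16.69 to 17.84 in skin, at 16.70 to 18.24 in papillomas and at 14.87 to 17.87 in carcinomas.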

How the data were processed

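Small RNA libraries from the CHR, PAP and cuSCC of 6 mice were used. The authors trimmed adapters, discarded very short and homopolymer reads, used BLAST to assign the remainder to miRBase entries, and gave abundances in ppm of usable reads. The submitters' processing notes name mm10. The deposited values are log2 ppm. Their quantile normalization and the lowest value of 10 ppm were read from the values. No read totals per library were used, so depth is unknown and counting error is not given. How reads that match several entries were divided is not given in the sources used here.

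The 293 of 1251 entries detected in 6 or more of the 18 libraries were compared between each pair of sample types with limma 3.58.1 in R 4.3.3, two-sided, without a block for mouse, with Benjamini-Hochberg adjustment. The procedure was tested on simulated data. Arm differences were compared with exact permutation tests by full enumeration in Python 3.11.15, adjusted over 6 comparisons. The enumeration was checked on 1 comparison against scipy 1.17.1. Sequences came from RefSeq and exons from GENCODE M21 (GRCm38). Lists were matched by name, with miR-126, miR-142 and miR-486 under their older names. The arms, marker lists and tests were chosen with earlier results of these data known. Named entries are the 6 arms, the 5 entries whose level correlated best with miR-199a-3p and with miR-214-3p, and members of the marker lists.

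Samples are numbered by mouse and thus paired. Deviations of paired samples from their group means correlated at 0.0250 (PAP and CHR), -0.0676 (cuSCC and CHR) and 0.0582 (cuSCC and PAP) on average. Alternatives were other detection filters, a fit on all sample types, the replicate block, centring, other treatments of undetected values, exact permutation per entry, the study's thresholds and leaving out each mouse. Leaving out the PAP and cuSCC of mouse 10 was added after seeing the data.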

Additional observations from a re-analysis of the deposited data

Results flagged for a closer look

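In 7 of the 21 sets of 6 libraries examined, 1 library stood apart from the others by Dixon's criterion, which chance meets in about 1 of 20, and each time it was a lesion of mouse 10. The sets share libraries, so these are not independent of each other. In the PAP of mouse 10, miR-199a-5p was at 3.32, not detected, against 7.97 to 10.26 in the other papillomas. miR-214-3p was also at 3.32 there, against 10.17 to 11.88 in the others, in a library whose lowest detected value was 6.83. As a result, the excess of miR-199a-3p over miR-199a-5p was 4.10 in that library (0.38 to 0.97 in the others), and that of miR-214-3p over miR-214-5p was 0.0 (5.30 to 7.12 in the others). In the cuSCC of mouse 10, miR-199a-5p was at 7.29 (10.82 to 11.67 in the others), miR-214-3p at 8.14 (11.10 to 12.24 in the others) and miR-214-5p at 3.32, not detected (7.0 to 7.58 in the others). The CHR of mouse 10 did not stand apart in any of these arms.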

How the results depend on the processing

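In all mice, 3 arms passed in PAP against CHR, 0 in cuSCC against CHR and 3 in cuSCC against PAP, and the counts were 3, 0 and 3 with mouse as a replicate block. Without a detection filter they were 0, 0 and 0. With each library centred 5 arms passed in both comparisons with PAP, and a fit on all 3 sample types gave 5 in cuSCC against PAP. Exact permutation per entry gave 5, 1 and 0, the study's thresholds 5, 3 and 5, and a lowest value of 100 ppm gave 1 in cuSCC against CHR. Without the PAP and cuSCC of mouse 10 there were 4 in cuSCC against CHR and 5 in cuSCC against PAP. With 1 mouse left out the counts ranged over 0 to 3, 0 to 5 and 0 to 5. Over all tested entries, the number called in cuSCC against PAP was 34, but 2 without a filter, 0 with exact permutation and 1 to 59 with 1 mouse left out.

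The difference of miR-199b-5p turned to 0.65 in PAP against CHR and -0.32 in cuSCC against PAP with undetected values at the lowest detected value of their library. The miR-199a arm difference between cuSCC and PAP, -0.15, turned to 0.43 in that setting, 0.40 with 100 ppm as the lowest value and 0.21 without the lesions of mouse 10 (-0.26 to 0.21 with 1 mouse left out). The miR-214 arm difference between PAP and CHR was 0.084 without the lesions of mouse 10 (-1.34 to 0.20 with 1 mouse left out). Between cuSCC and PAP it was 0.35 with 100 ppm as the lowest value. Each of these 3 arm differences passed in none of the settings named here for it. In other settings the miR-214 difference did pass. It was -2.09 in PAP against CHR with 100 ppm as the lowest value (exact permutation adjusted p = 0.00649). In cuSCC against PAP it was -1.84 without the lesions of mouse 10 (exact permutation adjusted p = 0.0238). For single arms and arm differences, 274 of the values under alternatives kept their direction and side of the threshold, 35 gained and 39 lost significance and 9 turned. The causes were not tested, beyond the values that mouse 10 and undetected entries supply. miR-199b-5p could not be tested with 100 ppm as the lowest value. Undetected values and unknown depth limit the low arms miR-214-5p and miR-199b-5p most.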

Other observations

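The tested entries outside the family whose levels were most like miR-214-3p over the 18 libraries were other than those most like miR-199a-3p. They were miR-132-3p (Pearson r = 0.92, Spearman rho = 0.57), miR-574-3p (r = 0.91, rho = 0.78), miR-92b-3p (r = 0.89, rho = 0.83), miR-674-3p (r = 0.89, rho = 0.72) and miR-127-3p (r = 0.87, rho = 0.50). Without the PAP and cuSCC of mouse 10 these r were 0.47, 0.58, 0.66, 0.39 and 0.44, so the likeness rests largely on those libraries. miR-92b-3p stood at 11.16 ± 0.57 in CHR, 8.11 ± 2.48 in PAP and 8.66 ± 0.78 in cuSCC (SD, n = 6 each), and miR-574-3p at 10.01 ± 0.31, 7.94 ± 2.35 and 8.05 ± 0.70.

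Of the imprinted Dlk1-Dio3 microRNAs, a large cluster expressed in mesenchymal cells, 7 of 16 were tested. In cuSCC against CHR 2 were higher, a share near the 20.1% of all tested entries that were, miR-411-5p by 1.74 (limma adjusted p = 0.0157) and miR-434-5p by 2.31 (limma adjusted p = 0.0167). In PAP against CHR and in cuSCC against PAP 0 passed in limma. Summed, they stood at 13.13 to 14.01 in skin, at 10.19 to 14.39 in papillomas and at 12.05 to 14.81 in carcinomas.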
